A study of Mus musculus with 4 samples.

Results

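Genes named Zfp and a number encode zinc finger proteins, and 212 of them were expressed in AML12 hepatocytes at a level that allowed the cultures to be compared. They were taken from 31828 genes of the RNA sequencing (RNA-seq) table by 2 conditions. The gene is protein-coding with a name of Zfp and digits alone, which 357 of 18623 protein-coding genes meet, and its mean over the 4 libraries is at least 5 TPM, the unit of transcript abundance in the deposited table. TPM is a level per transcript length, brought to the same total in each library. The mean TPM alone chose the members, so a level of 5 or more is not a result, whereas the comparison of the cultures is independent of that choice for all but the members near the threshold. Just inside it were Zfp473, with 4.69 and 6.74 TPM in 2D and 3.89 and 4.72 TPM in 3D, and Zfp60, with 3.01 and 2.91 TPM in 2D and 7.29 and 7.23 TPM in 3D. Just outside were Zfp398, with 4.53 and 4.58 TPM in 2D and 5.53 and 5.30 TPM in 3D, and Zfp229, with 4.98 and 5.59 TPM in 2D and 4.79 and 4.18 TPM in 3D. Of the other 145 genes, 67 had a mean between 1 and 5 TPM and 78 a mean below 1 TPM, and the latter were not tested. Among the members, 196 reached a mean of 5 TPM in both cultures and 16 in only one of them, so that a change in level helped to decide whether those 16 were included. They hold 3 members called higher in 3D (Zfp60, Zfp362 and Zfp395) and 6 called lower (Zfp185, Zfp808, Zfp9, Zfp458, Zfp563 and Zfp599), and these are named for this count.

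Most zinc finger proteins of this kind read DNA with a row of C2H2 fingers, short loops in which 2 cysteines and 2 histidines hold a zinc ion, and each finger contacts a few bases. Many also carry a KRAB domain, which recruits the corepressor Trim28 (KAP1) and with it enzymes that lay down repressive histone methylation, above all on retroelements and imprinted regions. KRAB zinc finger genes multiplied by local duplication and lie in clusters of related genes on several mouse chromosomes. A minority of genes with a Zfp name bind RNA, act in ubiquitination or ribosome assembly, or have no C2H2 finger at all.

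The cells were AML12, a mouse hepatocyte line derived from a mouse with a transforming growth factor alpha transgene, grown flat on a dish (2D) or inside Matrigel, a gel of basement membrane proteins (3D), with 2 libraries of each culture. Both cultures received 1 mM hydroxyurea, which blocks DNA synthesis, for 24 h in 2D and 36 h in 3D, so that culture form and exposure time cannot be told apart. The labels do not say whether replicates came from separate cultures, so p-values measure the spread between these libraries only. TPM keeps no record of sequencing depth, which is unknown here.

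Of 10 hepatocyte markers, 5 were expressed (Alb, Ttr, Apoa1, Apob and Hnf4a) and all 5 were higher in 3D. The others, Apoa2, Serpina1a, Cps1, Cyp2e1 and Tat, were below 1 TPM in every library. The summed level of the list was 101 to 102 TPM in 2D and 345 to 365 TPM in 3D. Of 5 biliary markers Epcam was near 0, Krt7 and Krt19 were high and called lower in 3D, and Spp1 and Sox9 were called higher. Krt7 had 492 and 492 TPM in 2D and 307 and 320 TPM in 3D, whereas Spp1 had 166 and 138 TPM in 2D and 764 and 786 TPM in 3D. The sum of the biliary list was 2294 to 2401 TPM in 2D and 2269 to 2357 TPM in 3D. The 4 endothelial markers summed to at most 1.47 TPM in any library. Leukocyte markers summed to 21.04 to 22.1 TPM in 2D and 23.5 to 27.6 TPM in 3D, nearly all of it Cd68, which was not called, with Adgre1 at or near 0. Cd3e, a T cell marker, was called lower, at 2.00 and 1.72 TPM in 2D and 0.496 and 0.490 TPM in 3D. Stellate and fibroblast markers summed to 34.9 to 37.4 TPM in 2D and 18.6 to 19.8 TPM in 3D, nearly all of it Des, which was called lower, with Acta2 below 1 TPM. The part of these differences in the results below was not tested. In bulk RNA, fewer cells of a type and less RNA per cell cannot be told apart.

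The repeated unit of these genes is best seen in neighbours. The 84 bases that code for 1 finger and the linker to the next are shown for 3 pairs of genes from the same cluster, chosen because the first 2 pairs moved in opposite directions between the cultures and both genes of the third pair were lower in 3D. Capitals mark the codons of the 2 cysteines and the 2 histidines. The sequences were read from GENCODE M21 transcripts on GRCm38 (chr8:69611798-69611881, minus strand for Zfp868; chr8:69706707-69706790, minus strand for Zfp869; chr17:21587361-21587444, plus strand for Zfp948; chr17:21508556-21508639, plus strand for Zfp53; chr13:67541721-67541804, minus strand for Zfp748; chr13:67516839-67516922, minus strand for Zfp87).
Zfp868 finger 2: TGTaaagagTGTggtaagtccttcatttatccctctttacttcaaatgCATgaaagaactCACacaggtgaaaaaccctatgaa
Zfp869 finger 6: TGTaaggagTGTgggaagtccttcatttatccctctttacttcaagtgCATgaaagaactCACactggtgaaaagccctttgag
Zfp948 finger 3: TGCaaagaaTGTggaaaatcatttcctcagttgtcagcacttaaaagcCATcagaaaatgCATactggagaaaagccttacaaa
Zfp53 finger 2: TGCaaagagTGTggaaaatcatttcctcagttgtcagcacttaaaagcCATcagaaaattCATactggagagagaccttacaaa
Zfp748 finger 2: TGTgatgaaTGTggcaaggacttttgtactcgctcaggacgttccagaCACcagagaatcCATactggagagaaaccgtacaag
Zfp87 finger 3: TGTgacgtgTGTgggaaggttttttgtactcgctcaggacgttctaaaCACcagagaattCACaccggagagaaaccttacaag
These are the most similar fingers of each pair, with 77, 79 and 72 of 84 bases identical. Such fingers lie in a single exon of each gene, and their likeness limits how surely a read can be assigned to one gene. Over longer stretches most genes were distinct: 163 of the 212 members shared no 100-base word with any other gene and 8 shared more than 20% of theirs.

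Most zinc finger genes did not pass the test between the cultures, and those that did were split between the directions. Of the 212 members, 37 were higher in 3D, 44 were lower and 131 did not pass the test, which was limma on log2(TPM + 1) with Benjamini-Hochberg adjustment across the 14116 genes tested and a threshold of 0.05. A call was thus made for 38.2% of members, against 50.5% of all genes tested (23.4% higher and 27.1% lower) and 54.5% of those with a mean of at least 5 TPM (25.3% higher and 29.2% lower). Without adjustment, 101 members had a p-value under 0.05. Both libraries of one culture lay above both of the other for 146 members (68.9%), against 77.5% of all genes tested. The members also had lower levels, with a median of the mean TPM of 16.8 against 33.9 for genes with a mean of at least 5 TPM. Calls were made for 31.0% of members at 5 to under 10 TPM, 36.4% at 10 to under 30 TPM and 49.1% at 30 TPM or more. Whether these shares differ, and the part of level in them, was not tested.

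The changes were also small. The median log2 fold change, 3D minus 2D, was -0.01 over the members and -0.04 over all genes tested. Of the 81 called members 50 differed by less than 0.5. Called or not, 38 members (17.9%) differed by more than 0.5, against 27.4% of all genes with a mean of at least 5 TPM. The median size of the change, without its sign, was 0.22 over the members and 0.29 over those genes. Whether these differ was not tested. The middle of the distribution ran from -0.26 to 0.20, and from -0.31 to 0.26 over all genes with a mean of at least 5 TPM. The extremes were -1.37 (Zfp185) and 1.06 (Zfp60), both members through their level in 1 culture. Among the 193 members with at least 5 TPM in each library the extremes were -1.06 and 0.94. All fold changes were taken from log2(TPM + 1), so that for weakly expressed genes they understate the ratio of TPM. The summed TPM of the members was 5158 and 5199 in 2D and 5230 and 5098 in 3D, so the family as a whole held 0.51% to 0.52% of the transcripts in every library.

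The calls were counted again away from the threshold that chose the members. Among the 193 members with at least 5 TPM in each of the 4 libraries, 34 were higher and 38 lower. These counts fell to 29 and 23 without 2D replicate 2, 18 and 23 without 3D replicate 1 and 22 and 20 without 3D replicate 2. Among the 67 genes with a mean between 1 and 5 TPM, 5 were higher and 5 lower, and at most 1 higher and 2 lower were left in any fit with 1 library left out. All 81 called members had libraries that did not overlap, so leaving 1 library out could not change their direction. With 3 libraries in place of 4 the calls became fewer, 33 higher and 25 lower without 2D replicate 2, 21 and 29 without 3D replicate 1, and 25 and 23 without 3D replicate 2. A total of 36 members, 19 higher and 17 lower, kept their call whichever library was left out, and none of the 81 changed direction under the alternatives of the fit.

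**Figure D1:**
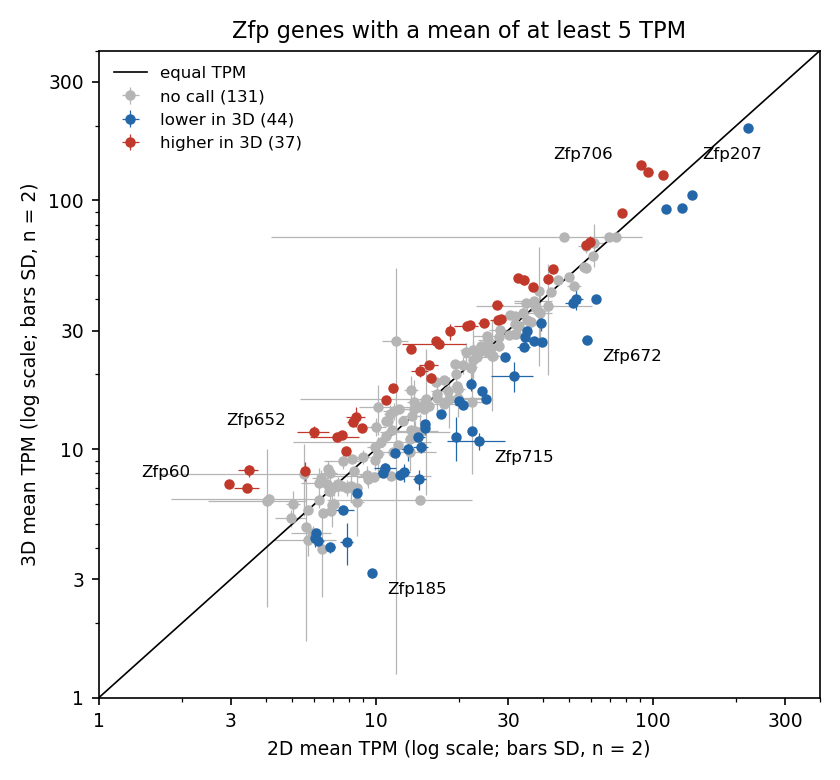
Mean TPM of the 212 Zfp genes in 2D (x axis) and 3D (y axis), both on log scales, with bars for the SD of 2 libraries; the line marks equal TPM. The 37 genes higher in 3D (red) and the 44 lower in 3D (blue) lie close to the line, with Zfp60 and Zfp185 among the farthest from it, and the longest bars belong to genes without a call (grey).

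Zfp60, a KRAB zinc finger gene of chromosome 7 (chr7:27731389-27753702, GRCm38), had the highest log2 fold change of the members. It is a member through its level in 3D, since its mean in 2D was below 5 TPM. It had 3.01 and 2.91 TPM in 2D and 7.29 and 7.23 TPM in 3D. Both 3D libraries lay far above both 2D libraries, and the log2 fold change was 1.06 (SE 0.09, adjusted p 0.00139 by limma). Its neighbour Zfp59, 1 of the 4 members of the same cluster, was not called. Zfp362 (chr4:128773088-128806045) had 3.28 and 3.68 TPM in 2D and 7.89 and 8.53 TPM in 3D, with a log2 fold change of 1.04 (SE 0.10, adjusted p 0.00198 by limma). Like Zfp60, it is a member through its level in 3D, since its mean in 2D was below 5 TPM. It has no KRAB domain and lies in no cluster, and the libraries of the cultures did not overlap. Zfp316, which carries 14 fingers and a KRAB domain, had 13.7 and 13.01 TPM in 2D and 25.7 and 25.04 TPM in 3D (log2 fold change 0.88, SE 0.07, adjusted p 0.00104 by limma).

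Zfp652, a DNA-binding repressor, had 5.43 and 6.55 TPM in 2D and 12.2 and 11.3 TPM in 3D (log2 fold change 0.87, SE 0.11, adjusted p 0.00413 by limma), and 5 listed genes overlap it. Zfp395, which binds the promoter of the huntingtin gene, had 3.19 and 3.67 TPM in 2D and 6.92 and 7.10 TPM in 3D (log2 fold change 0.86, SE 0.10, adjusted p 0.00345 by limma). Zfp746, also called PARIS, a repressor of the coactivator gene Ppargc1a, had 16.97 and 16.1 TPM in 2D and 26.7 and 27.7 TPM in 3D (log2 fold change 0.69, SE 0.07, adjusted p 0.00187 by limma). In these 3 genes the replicates lay close together and the cultures did not overlap. Zfp395 is a member through its level in 3D, since its mean in 2D was below 5 TPM.

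Zfp326, part of a complex that links mRNA elongation with splicing, had 18.2 and 18.9 TPM in 2D and 28.2 and 31.3 TPM in 3D (log2 fold change 0.65, SE 0.08, adjusted p 0.0032 by limma). Zfp524 was the least certain of the 8 genes with the highest fold changes. It had 19.96 and 13.7 TPM in 2D and 27.1 and 25.97 TPM in 3D (log2 fold change 0.65, SE 0.18, adjusted p 0.0371 by limma), it shares 54.7% of its 100-base words with the overlapping gene Gm44973, and its call was lost without either 3D library (adjusted p 0.148 without replicate 1 and 0.127 without replicate 2). The other 7 kept theirs whichever library was left out.

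The lowest log2 fold change was that of Zfp185 on the X chromosome (chrX:72987339-73031543), which has no C2H2 finger and encodes a LIM domain protein associated with the actin cytoskeleton. Its mean reached 5 TPM in 2D only. It had 9.73 and 9.73 TPM in 2D and 3.07 and 3.26 TPM in 3D, and its log2 fold change was -1.37 (SE 0.09, adjusted p 7.13e-04 by limma). Zfp672, a gene of 13 fingers on chromosome 11 (chr11:58315114-58330339), had 56.3 and 59.7 TPM in 2D and 27.4 and 27.3 TPM in 3D. The 3D libraries were nearly identical and far below both 2D libraries (log2 fold change -1.06, SE 0.06, adjusted p 4.94e-04 by limma). Reads of 1700047K16Rik, which overlaps it on the other strand, can be told apart in a stranded library.

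Zfp715 (19.7 and 27.6 TPM in 2D and 11.4 and 10.2 TPM in 3D; log2 fold change -1.05, SE 0.17, adjusted p 0.00813 by limma) and Zfp101 (21.6 and 22.7 TPM in 2D and 11.7 and 12.04 TPM in 3D; log2 fold change -0.85, SE 0.07, adjusted p 0.00121 by limma) are KRAB zinc finger genes of clusters on chromosomes 7 and 17. Zfp932, a KRAB protein that silences endogenous retroviruses, had 13.8 and 14.9 TPM in 2D and 7.07 and 8.05 TPM in 3D. Both 3D libraries were lower (log2 fold change -0.84, SE 0.10, adjusted p 0.00295 by limma), and the gene shares 26.9% of its 100-base words with other genes, nearly all with its paralogue Gm15446.

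Zfp808 had 7.55 and 8.14 TPM in 2D and 3.67 and 4.83 TPM in 3D (log2 fold change -0.76, SE 0.14, adjusted p 0.0113 by limma). Its mean reached 5 TPM in 2D only. Zfp160 had 19.3 and 19.6 TPM in 2D and 12.8 and 9.60 TPM in 3D (log2 fold change -0.76, SE 0.14, adjusted p 0.0119 by limma). Zfp110, also called NRIF, a partner of the p75 neurotrophin receptor, had 27.6 and 35.4 TPM in 2D and 21.7 and 17.8 TPM in 3D (log2 fold change -0.64, SE 0.15, adjusted p 0.0251 by limma). The replicates of these last 3 genes lay farther apart in at least 1 culture than those of Zfp185 or Zfp672. Zfp808, which 3 listed genes overlap on the same strand, lost its call without 2D replicate 2 (adjusted p 0.0511) and Zfp160 without either 2D library (adjusted p 0.0583 and 0.0615). For Zfp110 the adjusted p-value was 0.0786 without 2D replicate 2 and 0.1 without 3D replicate 2.

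**Figure D2:**
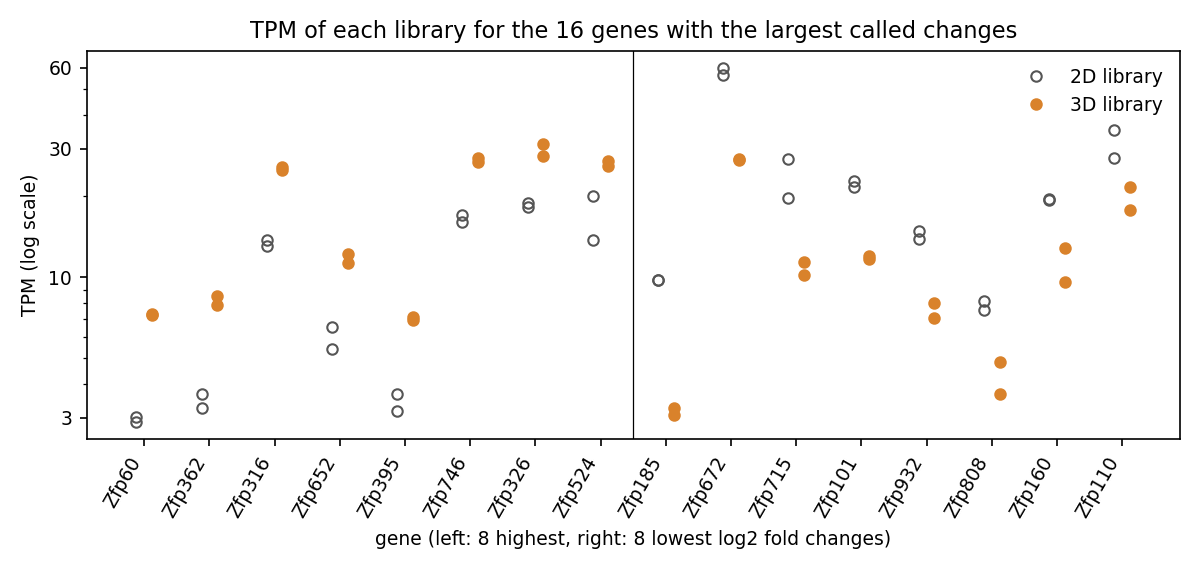
TPM (log scale) of the 8 genes with the highest (left of the line) and the 8 with the lowest (right) called log2 fold changes, with 1 open circle for each 2D library and 1 filled circle for each 3D library. In none of the 16 genes do the libraries of the cultures overlap, and the smallest gaps are those of Zfp524 and Zfp110.

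Among members with a KRAB domain more genes were lower than higher in 3D, and among members without it more were higher than lower. The domain was recognised in the translated GENCODE transcript by a short amino acid pattern of its A box. It was found in 94 of the 212 members, of which 10 were higher in 3D, 28 were lower and 56 were not called, with a median log2 fold change of -0.15. Among the 118 members without it, 27 were higher, 16 were lower and 75 were not called, with a median of 0.05. The 29.8% of KRAB members called lower were near the 29.2% of all genes with a mean of at least 5 TPM, and the 10.6% called higher stood beside 25.3% of those genes. Of the other members 22.9% were called higher, near that 25.3%, and 13.6% lower. Of the KRAB members 60 (63.8%) had a fold change below 0, whether called or not, against 50 (42.4%) of the others and 52.7% of all genes with a mean of at least 5 TPM. The members were not independent of each other, and the difference between these groups was not tested.

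Leaving out a library reduced the calls of KRAB members to between 6 and 9 higher and between 12 and 19 lower, with 8 and 12 without 3D replicate 2, 6 and 16 without 3D replicate 1 and 9 and 14 without 2D replicate 2. Those of the other members were between 15 and 24 higher and between 11 and 16 lower, with 15 and 13 without 3D replicate 1 and 17 and 11 without 3D replicate 2. The lower calls were thus the more numerous for KRAB members, and the higher calls for the others, in each of these fits. Without the members on chromosome 13, a choice made after the data were seen, 10 KRAB members were higher and 19 lower.

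The groups were also described by other measures. Of the 198 Zfp-number genes with the pattern 47.5% were members, and of the other 159 genes 74.2%, shares that the TPM threshold sets and that were not tested. The median of the mean TPM was 12.4 over KRAB members and 22.3 over the others. KRAB members had a median of 11 C2H2 fingers and the others 7. A median of 86.4% of the coding bases of KRAB members lay in the last coding exon, the exon that holds the fingers, against 51.7% in the others. Of all members 203 had a C2H2 pattern, up to 33 of them in Zfp142, and 9 had none.

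**Figure D3:**
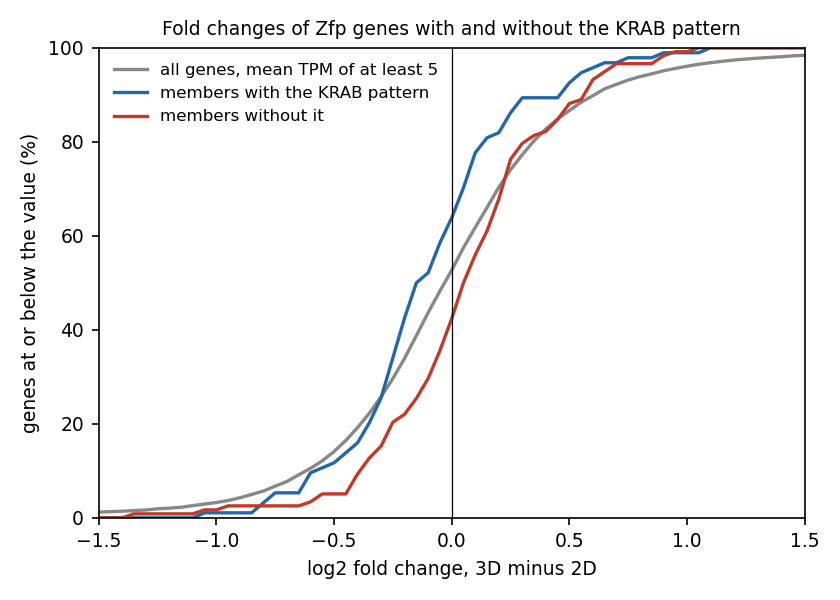
Share of genes (y axis, in percent) with a log2 fold change, 3D minus 2D, at or below the value on the x axis, for 94 members with the KRAB pattern (blue), 118 members without it (red) and all genes with a mean of at least 5 TPM (grey). At 0 the lines stand at 63.8%, 42.4% and 52.7%, and both member lines are steeper than that of all genes.

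Other genes with zinc finger names and a mean of at least 5 TPM were set beside the members. They were chosen by name alone, so some may not encode C2H2 proteins. Of all genes at that level 25.3% were higher and 29.2% lower. Zbtb genes, named after a BTB domain, had 11 of 35 higher (31.4%) and 2 lower (5.71%), with a median of 0.13. Without 3D replicate 1 these were 7 and 2, and without 3D replicate 2, 6 and 3. Zscan and Zkscan genes, named after a SCAN domain, had 3 of 14 higher (21.4%) and 5 lower (35.7%), with a median of -0.01. Genes whose Zfp name has a letter after the digits had 2 of 17 higher (11.8%) and 1 lower (5.88%).

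The members were then placed along the genome. A cluster was defined as at least 3 Zfp-number genes, expressed or not, on 1 chromosome with gaps of at most 250 kb. There were 29 clusters with 189 genes, 145 of them with the KRAB pattern. They held 103 members, of which 14 were higher (13.6%) and 22 lower (21.4%). Outside them 23 of 109 members were higher (21.1%) and 22 lower (20.2%). Of all genes with a mean of at least 5 TPM 25.3% were higher and 29.2% lower. The calls in clusters fell to 12 and 11 without 2D replicate 2, 7 and 12 without 3D replicate 1 and 9 and 6 without 3D replicate 2. Outside clusters they were 21 and 14 without 2D replicate 2 and 14 and 17 without 3D replicate 1. Of the 72 KRAB members in clusters 6 were higher (8.33%) and 21 lower (29.2%), and of the 22 outside them 4 were higher (18.2%) and 7 lower (31.8%). In clusters the excess of lower calls depended on the libraries, with 4 higher and 12 lower without 2D replicate 1, 5 and 9 without 2D replicate 2, 4 and 10 without 3D replicate 1, and 6 and 5 without 3D replicate 2. Outside clusters 2 were higher without either 3D library.

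Of the 24 clusters with a member, 5 had calls in both directions, 5 had only higher calls, 8 had only lower calls and 6 had none. The other 5 clusters, with 24 genes on chromosomes 2, 4, 7 and 11, held no member. They include 10 KRAB genes in 1 run on chromosome 4 (chr4:146971976-147848366), a part of the family known for its recent expansion in the mouse. Among the 5 clusters with calls in both directions, some opposite calls did not hold. The lower call of Zfp282 on chromosome 6 and both calls on chromosome 8 (Zfp869 and Zfp868) were lost whichever library was left out. So was that of Zfp146, the only higher call of its chromosome 7 cluster. These calls were also lost with the replicate number as a block.

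**Figure D4:**
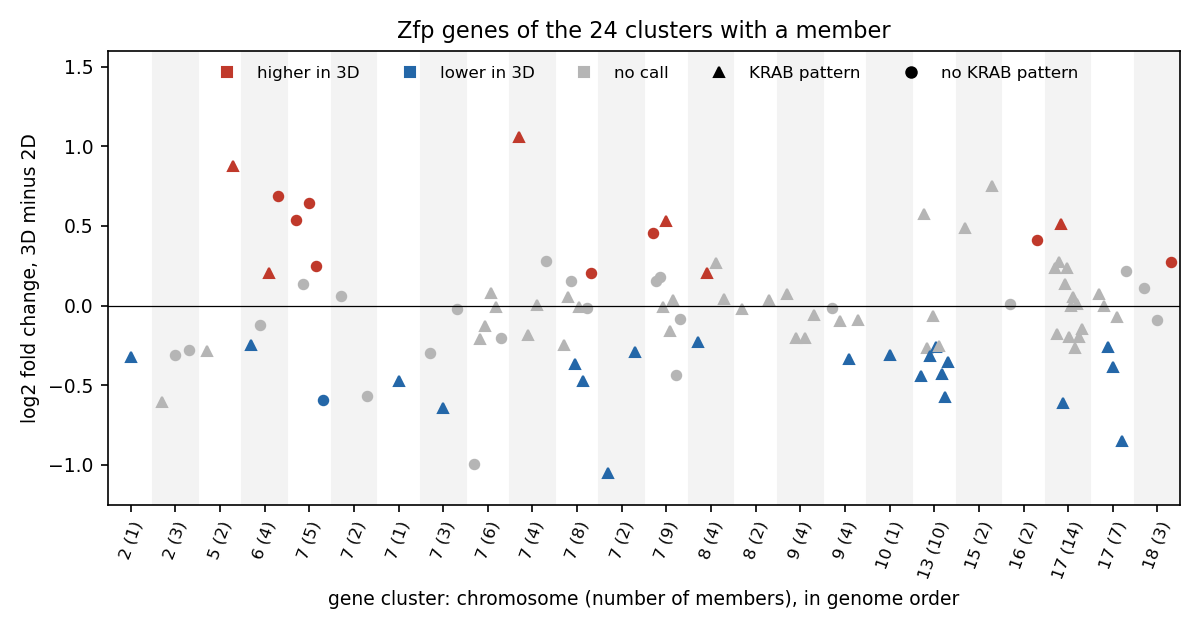
Log2 fold change, 3D minus 2D (y axis), of each member in the 24 clusters with a member, in genome order (x axis, chromosome with the number of members in brackets); triangles carry the KRAB pattern and circles do not, and colours give the call. The chromosome 13 cluster has 6 lower calls and no higher call among 10 members, and the cluster with the most members, on chromosome 17, has 1 of each among 14.

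The cluster with the most lower calls lay on chromosome 13 (chr13:67038596-67827002). It holds 19 genes, all with the KRAB pattern, and 10 of them were members. Zfp748, the gene with the most fingers there, had 12.1 and 12.3 TPM in 2D and 7.75 and 8.05 TPM in 3D (log2 fold change -0.57, SE 0.08, adjusted p 0.0044 by limma). Zfp458 had 5.95 and 6.40 TPM in 2D and 4.17 and 4.39 TPM in 3D (log2 fold change -0.44, SE 0.10, adjusted p 0.0184 by limma), and Zfp87 had 21.5 and 19.7 TPM in 2D and 15.3 and 14.9 TPM in 3D (log2 fold change -0.43, SE 0.07, adjusted p 0.0097 by limma). In all 3 genes both 3D libraries were below both 2D libraries. The mean of Zfp458 reached 5 TPM in 2D only. Zfp65, Zfp953 and Zfp429 fell by 0.35, 0.31 and 0.26 on the log2 scale (adjusted p 0.0435, 0.0301 and 0.0399 by limma).

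The other 4 members of this cluster were not called. Zfp58 had 6.96 and 6.88 TPM in 2D and 5.74 and 5.54 TPM in 3D (adjusted p 0.0624 by limma) and shares 49.1% of its 100-base words with other genes. Zfp456, the most abundant member of the cluster, had 30.7 and 29.7 TPM in 2D and 28.5 and 29.2 TPM in 3D. Both 3D libraries were slightly lower, with a log2 fold change of -0.06 (SE 0.06, adjusted p 0.402 by limma). Zfp595 had 11.6 and 17.3 TPM in 2D and 10.2 and 13.2 TPM in 3D. Zfp457 was the only member of the cluster with a positive fold change, at 2.78 and 8.22 TPM in 2D and 6.16 and 9.78 TPM in 3D, and its replicates differed more than the cultures did. The summed TPM of the 10 members was 140 ± 6.55 in 2D and 116 ± 2.93 in 3D (SD, n = 2 each).

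Over the 10 members the median log2 fold change was -0.29, and over the 11 other tested genes within the same span it was -0.03, with 0 higher and 2 lower. The lower calls depended on the number of libraries, with 3 left without 2D replicate 1, 2 without 2D replicate 2, 2 without 3D replicate 1 and 1, Zfp748, without 3D replicate 2. The median remained between -0.35 and -0.28 in these fits. On the whole of chromosome 13, 0 of 16 members were higher and 9 lower, including Zfp808, Zfp369 and Zfp825 outside the cluster. The 9 lower calls became 6 without 2D replicate 1, 4 without 2D replicate 2, 5 without 3D replicate 1 and 3 without 3D replicate 2. That chromosome had few higher calls in general, with 14.0% of its 565 other tested genes higher and 38.6% lower and a median of -0.18, the lowest among the chromosomes. Those 79 higher and 218 lower calls became 49 and 147 without 3D replicate 1 and 54 and 138 without 3D replicate 2.

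The cluster with the most members lay on chromosome 17 (chr17:21383748-22456689), with 18 genes, all with the KRAB pattern, and 14 members. Zfp948 had 61.5 and 62.9 TPM in 2D and 40.3 and 40.4 TPM in 3D, and its neighbour Zfp53 had 21.9 and 21.6 TPM in 2D and 31.2 and 31.8 TPM in 3D. The first was lower in both 3D libraries and the second higher in both, with log2 fold changes of -0.61 (SE 0.05, adjusted p 0.00109 by limma) and 0.51 (SE 0.06, adjusted p 0.00273 by limma). Each kept its call whichever library was left out. Their most similar fingers differ at 5 of 84 bases, as printed above.

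The other 12 members of the chromosome 17 cluster were not called. They were Zfp677, Zfp54, Zfp51, Zfp983, Zfp760, Zfp995, Zfp942, Zfp943, Zfp994, Zfp944, Zfp758 and Zfp946, with log2 fold changes between -0.27 for Zfp994 and 0.27 for Zfp51. Nearest to the threshold was Zfp760, with 11.1 and 10.7 TPM in 2D and 13.2 and 12.8 TPM in 3D (adjusted p 0.0524 by limma). The summed TPM of the cluster was 212 ± 2.65 in 2D and 199.9 ± 1.68 in 3D (SD, n = 2 each).

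On chromosome 7, which holds 89 Zfp-number genes and 50 members, 10 members were higher and 7 lower, or 5 and 6 without 3D replicate 1 and 6 and 3 without 3D replicate 2. Beside these members stood 1036 other tested genes of chromosome 7, of which 21.7% were higher and 24.3% lower. The cluster of this chromosome with the most members (chr7:127233061-127885996) had 2 higher calls, Zfp553 with 26.6 and 28.4 TPM in 2D and 38.3 and 37.8 TPM in 3D (log2 fold change 0.45, SE 0.06, adjusted p 0.00444 by limma) and Zfp764 with 7.71 and 7.40 TPM in 2D and 11.3 and 11.5 TPM in 3D (log2 fold change 0.53, SE 0.08, adjusted p 0.0056 by limma). Zfp771, Zfp768, Zfp747, Zfp688, Zfp689, Zfp668 and Zfp646 were not called, and the largest difference among these, that of Zfp668 (8.14 and 14.5 TPM in 2D and 7.85 and 7.76 TPM in 3D), came from 1 of the 2D libraries. The next cluster (chr7:29768552-30169750) had 8 members. Zfp568, a KRAB protein that represses a placental transcript of Igf2, had 23.6 and 24.6 TPM in 2D and 16.9 and 17.3 TPM in 3D (log2 fold change -0.47, SE 0.06, adjusted p 0.00461 by limma). Zfp383 was also lower (7.16 and 8.13 TPM in 2D and 5.56 and 5.81 TPM in 3D; log2 fold change -0.37, SE 0.10, adjusted p 0.0351 by limma), whereas Zfp146, a short protein of 10 fingers and little else, was higher (58.4 and 59.8 TPM in 2D and 70.99 and 65.7 TPM in 3D; log2 fold change 0.21, SE 0.06, adjusted p 0.0394 by limma). The calls of Zfp146 and Zfp383 were lost in 4 and 3 of the 4 fits with 1 library left out (adjusted p 0.0593 to 0.175 and 0.0441 to 0.138). Zfp84, Zfp790, Zfp27, Zfp74 and Zfp260 were not called.

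Neighbours with opposite calls were seen elsewhere as well. Genes in the rest of this paragraph were chosen after their values were seen. On chromosome 8 (chr8:69610857-69791178), Zfp869 had 42.2 and 41.7 TPM in 2D and 49.4 and 47.5 TPM in 3D (log2 fold change 0.20, SE 0.05, adjusted p 0.0292 by limma) and Zfp868 had 35.7 and 34.7 TPM in 2D and 29.5 and 30.4 TPM in 3D (log2 fold change -0.23, SE 0.06, adjusted p 0.0268 by limma). Both differences were small, and both calls were lost in each of the 4 fits with 1 library left out (adjusted p 0.0694 to 0.146 and 0.0579 to 0.126). In a cluster of chromosome 7 without KRAB genes (chr7:4915217-5053723), Zfp628, Zfp524 and Zfp865, a symbol that 2 listed genes bear, were higher and Zfp580 lower. On chromosome 6 Zfp777 and Zfp746 were higher and Zfp282 lower. The call of Zfp282 was lost in each of the 4 fits with 1 library left out, and those of Zfp777 and Zfp865 in 3 of them. These calls were also lost with the replicate number as a block. Zfp524 lost its call without either 3D library. Zfp628, Zfp580 and Zfp746 kept theirs whichever library was left out.

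The promoters of the members were read from RefSeq on GRCm38.p6, as the 300 bases from 250 before to 50 after the annotated start, and 175 of the 212 members matched. Members without the KRAB pattern had a median of 20 CpG dinucleotides in this window and KRAB members 11, against 17 over all 14093 promoters of protein-coding genes. Every 8-base word was then counted on both strands, over members and over all promoters. Among words present in at least 12 member promoters, AATGTAGT, or ACTACATT on the other strand, had the highest share relative to all promoters. It was found in 17 member promoters (9.71%) and in 208 of all 14093 (1.48%). The word was thus picked by its frequency, which is a description and not a test.

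Of the 17 holders 15 carry the KRAB pattern and 14 lie in clusters, 2 were higher in 3D (Zfp60 and Zfp189), 5 were lower and 10 were not called. The 250 bases before the start are shown for 3 of them, 2 higher and 1 lower in 3D, with the word in capitals (Zfp60, chr7:27731159-27731408, plus strand; Zfp189, chr4:49520926-49521175, plus strand; Zfp953, chr13:67360573-67360822, minus strand).
Zfp60: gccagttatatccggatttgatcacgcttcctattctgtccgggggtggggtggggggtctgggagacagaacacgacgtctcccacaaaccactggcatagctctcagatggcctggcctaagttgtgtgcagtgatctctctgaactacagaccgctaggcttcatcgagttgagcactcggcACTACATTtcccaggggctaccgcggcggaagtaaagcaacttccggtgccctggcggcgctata
Zfp189: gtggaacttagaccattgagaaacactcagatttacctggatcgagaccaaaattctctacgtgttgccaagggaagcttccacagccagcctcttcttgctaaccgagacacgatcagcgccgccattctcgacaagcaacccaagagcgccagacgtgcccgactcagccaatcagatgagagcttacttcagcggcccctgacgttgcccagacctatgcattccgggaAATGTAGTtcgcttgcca
Zfp953: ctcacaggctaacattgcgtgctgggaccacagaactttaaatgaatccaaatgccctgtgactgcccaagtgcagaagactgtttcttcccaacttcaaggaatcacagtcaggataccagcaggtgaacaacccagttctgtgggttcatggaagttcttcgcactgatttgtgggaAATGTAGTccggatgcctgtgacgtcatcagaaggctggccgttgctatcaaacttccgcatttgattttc
A match is a description of these letters, not of a bound site. The calls of its 17 holders, 2 higher and 5 lower, stand beside 10.6% higher and 29.8% lower of all KRAB members. Of all genes with a mean of at least 5 TPM 25.3% were higher and 29.2% lower. Whether holders differ from other KRAB members was not tested.

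Not all Zfp genes act on DNA, and some of the most abundant members are among those that do not. Zfp207 (BuGZ), which binds microtubules and the checkpoint protein Bub3 at the spindle, had the highest level of all members at 223 and 219 TPM in 2D and 198 and 194 TPM in 3D, and was slightly lower in 3D (log2 fold change -0.17, SE 0.04, adjusted p 0.0189 by limma). Zfp512 followed with 141 and 137 TPM in 2D and 107 and 104 TPM in 3D (log2 fold change -0.39, SE 0.04, adjusted p 0.00283 by limma). Zfp91, a ubiquitin ligase, had 106 and 111 TPM in 2D and 130.0 and 124 TPM in 3D (log2 fold change 0.22, SE 0.05, adjusted p 0.0212 by limma). The differences of Zfp207 and Zfp91 were small, and each lost its call without 2D replicate 1 or either 3D library (adjusted p 0.0366 to 0.127 and 0.0324 to 0.115 over the fits with 1 library left out).

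Zfp706, which encodes the shortest protein of the family here with 76 residues, had 91.8 and 88.8 TPM in 2D and 136 and 142 TPM in 3D. Both 3D libraries exceeded both 2D libraries (log2 fold change 0.62, SE 0.05, adjusted p 0.00101 by limma). Zfp598, the ubiquitin ligase that marks collided ribosomes, had 93.7 and 98.8 TPM in 2D and 130.4 and 129 TPM in 3D. It rose by 0.43 on the log2 scale (SE 0.05, adjusted p 0.00251 by limma), and the libraries of each culture lay close together. These were 5 of the 5 members with the highest mean TPM, 3 higher and 2 lower in 3D.

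Of 11 Zfp genes listed for roles in RNA, ribosomes or ubiquitination, 6 were higher, 2 were lower and 3 were not called. Their median log2 fold change was 0.19. That is 54.5% higher and 18.2% lower, beside 25.3% and 29.2% of all genes with a mean of at least 5 TPM. The list has 11 genes and was not tested as a group. It includes Zfp207 and Zfp706, called lower and higher, for which no such role is given above. Zfp36, or tristetraprolin, which binds AU-rich elements and speeds mRNA decay, had 23.8 and 25.3 TPM in 2D and 32.7 and 31.4 TPM in 3D (log2 fold change 0.37, SE 0.06, adjusted p 0.00969 by limma). Zfp106, an RNA-binding protein, had 78.4 and 76.8 TPM in 2D and 89.7 and 88.01 TPM in 3D (log2 fold change 0.19, SE 0.04, adjusted p 0.0207 by limma). The fall of Zfp622, a factor in the maturation of the large ribosomal subunit, was small next to its level, at 112 and 112 TPM in 2D and 91.5 and 93.1 TPM in 3D (log2 fold change -0.28, SE 0.04, adjusted p 0.00585 by limma). Zfp593, another factor of the large subunit, Zfp346, which binds double-stranded RNA, and Zfp830 were not called, with log2 fold changes of -0.02, -0.14 and 0.00. Zfp36 lost its call without 3D replicate 1 (adjusted p 0.06) and Zfp106 in 3 of the 4 fits with 1 library left out (adjusted p 0.0432 to 0.114). Over the list the calls fell to 3 higher and 1 lower without 3D replicate 1, and to 4 and 1 without 3D replicate 2. The lower calls were also 1 without 2D replicate 1.

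KRAB proteins known from imprinting and retroelement silencing gave no common direction. Of 9 such genes 7 were tested, 2 were lower (Zfp932 and Zfp568, above), 1 was higher and 4 were not called. That is 28.6% lower and 14.3% higher, beside 29.2% and 25.3% of all genes with a mean of at least 5 TPM. The higher one, Zfp951, lies below the members' threshold at 1.15 and 1.27 TPM in 2D and 2.07 and 2.48 TPM in 3D (log2 fold change 0.57, SE 0.13, adjusted p 0.0234 by limma), and lost its call in each fit with 1 library left out (adjusted p 0.0557 to 0.11). Zfp57, which protects imprinted methylation, had 54.9 and 28.5 TPM in 2D and 50.4 and 25.2 TPM in 3D, so replicate 1 was well above replicate 2 in each culture (adjusted p 0.8 by limma). Zfp445, the second factor of imprint maintenance, had 36.6 and 40.4 TPM in 2D and 36.7 and 35.1 TPM in 3D. Zfp809, which silences murine leukaemia virus through its primer binding site, had 34.4 and 35.95 TPM in 2D and 29.1 and 36.8 TPM in 3D. Neither of these differed beyond the spread of its replicates. Zfp961 was at 10.4 and 9.50 TPM in 2D and 10.3 and 10.1 TPM in 3D, and Zfp708 and Zfp989 had means below 1 TPM.

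Of the other DNA-binding Zfp genes with well-known roles, 16 were in the table and 14 tested, with 3 higher, 2 lower and 9 not called. That is 21.4% higher and 14.3% lower, beside 25.3% and 29.2% of all genes with a mean of at least 5 TPM, with no test of the list. These calls depended on the library left out, and the median log2 fold change then ran from -0.01 to 0.10. Besides Zfp362 and Zfp746, Zfp217, an oncogene product that binds the CoREST corepressor, was higher (13.7 and 15.2 TPM in 2D and 21.3 and 19.8 TPM in 3D; log2 fold change 0.48, SE 0.08, adjusted p 0.00981 by limma), and its call was lost without 3D replicate 1 (adjusted p 0.0579). Besides Zfp110, Zfp407 was lower (13.6 and 14.8 TPM in 2D and 11.4 and 11.1 TPM in 3D; log2 fold change -0.31, SE 0.08, adjusted p 0.0307 by limma). That call was lost without 2D replicate 2 or either 3D library (adjusted p 0.0978, 0.0987 and 0.129).

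Zfp143, an activator at the promoters of many housekeeping genes, had 23.7 and 23.5 TPM in 2D and 24.3 and 24.95 TPM in 3D, with a log2 fold change of 0.06 (95% confidence interval -0.10 to 0.21). Zfp384, Zfp335 and Zfp703 had log2 fold changes of 0.04, 0.04 and 0.08, and Zfp148 and Zfp281, which bind GC-rich sequence, had -0.06 and 0.19. For Zfp462 and Zfp827 the fold changes were -0.40 and 0.59, with 2D replicates that lay apart (2.50 and 5.73 TPM in 2D and 6.52 and 6.09 TPM in 3D for the latter). Zfp763 had a mean below 5 TPM and was not called. Zfp423 and Zfp521 had means below 1 TPM.

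The genes through which KRAB proteins act were compared next. Of 38 corepressor genes 37 were tested, and 7 were higher and 12 lower in 3D, with a median log2 fold change of -0.08. The 51.4% called stood beside 50.5% of all genes tested and 54.5% of those with a mean of at least 5 TPM. By direction 18.9% were higher and 32.4% lower, beside 25.3% and 29.2% of genes with a mean of at least 5 TPM. The list was not tested as a group. Trim28, the protein that KRAB domains bind, had 173 and 175 TPM in 2D and 169.9 and 171 TPM in 3D. Its levels differed by little between the cultures (log2 fold change -0.03, 95% confidence interval -0.13 to 0.07, adjusted p 0.541 by limma). Setdb1, the histone H3 lysine 9 methyltransferase that Trim28 recruits, had 27.02 and 28.2 TPM in 2D and 28.1 and 27.2 TPM in 3D (log2 fold change 0.00, 95% confidence interval -0.16 to 0.16).

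Ehmt2 (G9a), a methyltransferase of the same lysine, had the highest fold change. It had 62.3 and 62.8 TPM in 2D and 119 and 133 TPM in 3D, with each 3D library well above both 2D libraries (log2 fold change 1.00, SE 0.07, adjusted p 7.72e-04 by limma). Chd4, the remodelling enzyme of the NuRD complex, had 108 and 118 TPM in 2D and 159.6 and 155 TPM in 3D (log2 fold change 0.47, SE 0.06, adjusted p 0.00336 by limma). Morc3, a chromatin ATPase, followed with 42.3 and 42.2 TPM in 2D and 51.4 and 54.7 TPM in 3D (log2 fold change 0.32, SE 0.06, adjusted p 0.00937 by limma). At the other end stood Pphln1, a subunit of the HUSH silencing complex, with 45.5 and 61.97 TPM in 2D and 34.8 and 32.6 TPM in 3D (log2 fold change -0.64, SE 0.16, adjusted p 0.0258 by limma). Gatad2b, a further NuRD subunit, had 32.8 and 29.8 TPM in 2D and 18.4 and 22.9 TPM in 3D (log2 fold change -0.58, SE 0.12, adjusted p 0.0168 by limma). Dnmt1, which copies DNA methylation after replication, had 63.3 and 70.4 TPM in 2D and 46.97 and 45.3 TPM in 3D (log2 fold change -0.52, SE 0.07, adjusted p 0.00446 by limma). Morc3 lost its call without 3D replicate 2 (adjusted p 0.0566), Pphln1 without either 3D library (adjusted p 0.0934 and 0.121) and Gatad2b without either 2D library (adjusted p 0.08 and 0.0508). The corepressor calls as a whole fell to 6 higher and 6 lower without 2D replicate 1, 7 and 8 without 2D replicate 2, 4 and 6 without 3D replicate 1 and 2 and 7 without 3D replicate 2. Zfp410, which was chosen after its values were seen, is a zinc finger activator whose known target is Chd4. It had 54.96 and 50.9 TPM in 2D and 43.1 and 37.3 TPM in 3D (log2 fold change -0.39, SE 0.09, adjusted p 0.0218 by limma), and its call was lost in each fit with 1 library left out other than that without 3D replicate 1 (adjusted p 0.0247 to 0.0898).

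**Figure D5:**
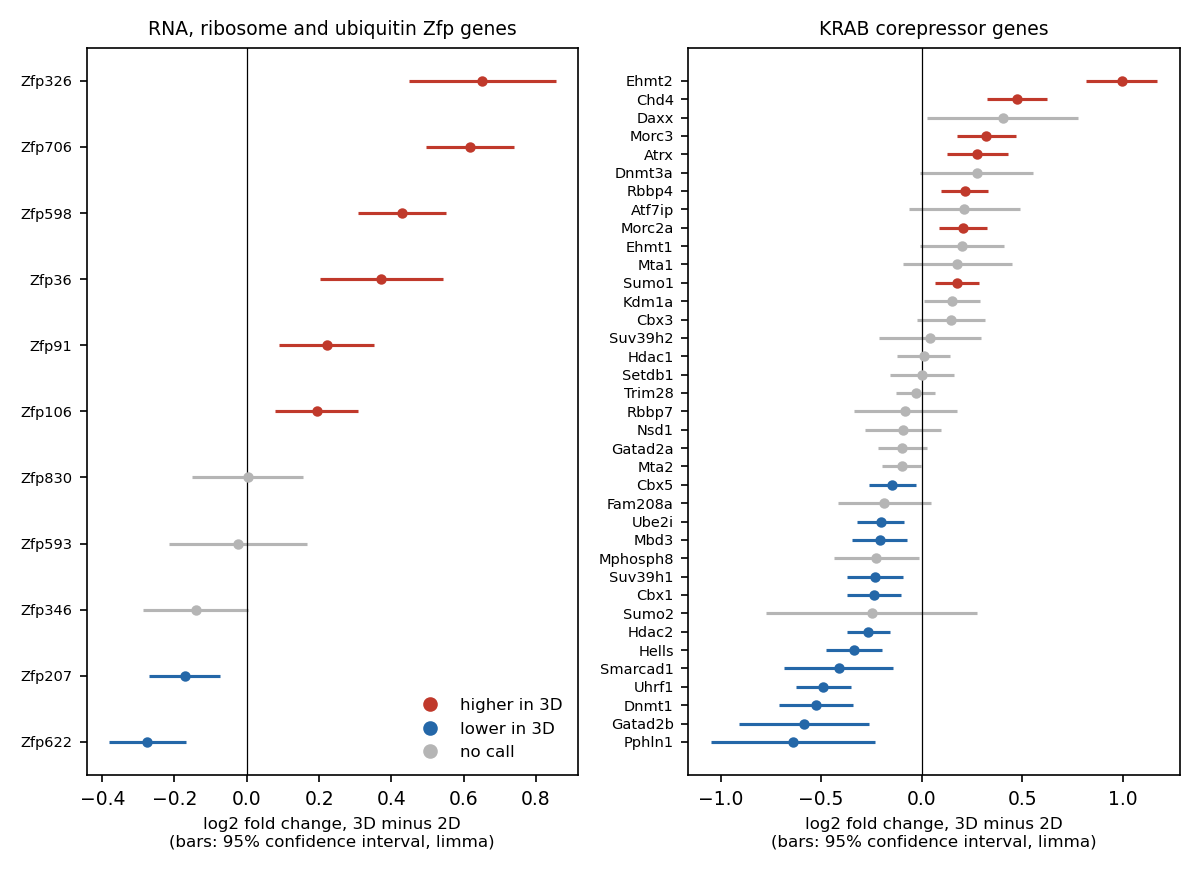
Log2 fold change, 3D minus 2D (x axis), with 95% confidence intervals from limma and 1 row per gene. The left panel holds 11 Zfp genes listed for roles in RNA, ribosomes and ubiquitination, and the right panel 37 corepressor genes of KRAB proteins. Red marks calls higher in 3D, blue calls lower in 3D and grey no call. Of the genes on the left 6 are higher and 2 lower, and on the right 7 are higher and 12 lower, with Trim28 and Setdb1 near 0.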

How the data were processed

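RNA was sequenced from AML12 cells, with 2 libraries of 2D and 2 of 3D cultures made with a stranded mRNA kit. Per the labels and the methods of the study, the authors used cutadapt 1.8.3, Trimmomatic 0.36, HISAT2 2.0.5 with GRCm38, and StringTie 1.3.4 on Ensembl genes. The authors deposited TPM, 1 column for each library. The authors also deposited a log2 fold change (2D over 3D) and a p-value, which they made with DESeq2 from read counts. Both columns were left out here. TPM holds no depth, so nothing that needs counts was computed, and a 0 may be a failed estimate.

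The labels gave the culture of each library. Every gene with a mean TPM of at least 1 (14116 genes) entered a limma 3.58.1 fit in R 4.3.3 on log2(TPM + 1), with lmFit and with eBayes (trend and robust set), culture being the single factor. Tests were two-sided, p-values were adjusted by Benjamini-Hochberg over all these genes, and a call needed an adjusted p under 0.05. Exact permutation of 2 libraries per culture reaches 0.333 at the lowest and was not used. The script was tested on simulated data first. Lists and groups of members were described by counts and medians, without a test of the group.

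Transcripts came from GENCODE M21 (GRCm38), and gene positions and overlaps from the starts and ends that the authors deposited. Coding sequences were translated, C2H2 fingers counted by the spacing of their cysteines and histidines, and the KRAB A box found by a short pattern, which can miss degenerate copies. Words of 100 bases were compared between the transcripts of all genes. Figures were drawn with matplotlib 3.10.9 in Python 3.11.15.

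The members, the gene lists and the tests were chosen with earlier results of these data known. Named genes are the 8 highest and 8 lowest fold changes among called members, the 5 members with the highest mean TPM, the genes next to the threshold of 5 TPM, members of 3 role lists (RNA, ribosome and ubiquitin genes, imprint and retroelement KRAB genes, other DNA-binding genes), all members of the 4 clusters with the most members, and of the corepressor list Trim28, Setdb1 and the 3 highest and 3 lowest called genes. Any other gene was picked with its values in view. The marker lists were those of hepatocytes, biliary, endothelial, leukocyte, and stellate and fibroblast cells. Zfp42, Zfp503, Zfp711 and Lrat, which the lists name, were not analysed here.

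As alternatives the pseudocount was set to 0.1 or 5, the filter dropped or raised to a mean TPM of 5, the values centred on their median or quantile-normalized, the replicate number added as a block, the prior variance held constant and each library left out. Members were also chosen with other TPM thresholds or without overlapping genes, and clusters with gaps of 100 or 500 kb.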

Additional observations from a re-analysis of the deposited data

How the results depend on the processing

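With 2 libraries per culture, calls of small differences depended on the test. In no fit did 1 of the 81 called members change sign, but this is no measure of stability. Their libraries did not overlap, so neither leaving 1 out nor another pseudocount could turn the sign. The filter, the block and the prior variance leave the fold change as it was. Centring moved the median of all genes only from -0.04 to -0.02, and the smallest called change was 0.17. With no filter on low values, which adds genes near 0 TPM to the variance trend and the adjustment, 26 members were lower, as were 7 corepressor genes, 10 members in clusters, 16 KRAB members and 10 other members. Without overlapping members 23 were higher, since fewer members remain. Across the fits that each left out 1 library, members higher ranged from 21 to 33 and lower from 23 to 35, corepressor genes higher from 2 to 7 and lower from 6 to 8, members in clusters higher from 7 to 12 and lower from 6 to 17, KRAB members higher from 6 to 9 and lower from 12 to 19, and other members higher from 15 to 24. The other counts of these 5 groups were within 1.5 times their values in the report. Of the smaller groups, the chromosome 13 cluster had 3 lower calls with no filter and 3 under the block, KRAB members in clusters 9 and 9, Zbtb genes 7 higher and 1 lower with no filter, and members of chromosome 7 had 6 and 4 with no filter and 8 and 4 under the block. Members with at least 5 TPM in each library had 24 higher and 22 lower with no filter and 27 and 23 under the block. The list of RNA, ribosome and ubiquitin genes had 1 lower call under the block and 1 with a constant prior variance, and the other DNA-binding genes 0 lower with no filter and 0 under the block. Genes with a mean of 1 to 5 TPM had 2 higher and 3 lower with no filter, 3 and 4 under the block, and 9 and 13 with a constant prior variance. The median of the members stayed between -0.03 and 0.01 everywhere. Leaving out members with over 20% shared words (36 higher and 43 lower) or those on chromosome 13 (37 and 35) was added after seeing the data. The sensitivity of the fit to depth could not be examined, since TPM keeps none.

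The replicate numbers do not pair the libraries (correlation of the deviations of same-numbered libraries -0.05 across 14116 genes). With the number as a block, 30 members were higher and 27 lower, with 10 in clusters and 16 with the KRAB pattern lower. Of 98 named genes, 11 lost their call under the block and 0 gained one. The block leaves every fold change as it was in this layout of 2 libraries per culture, so no sign could change.

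Some named genes that were not called changed sign. With centring on the median, Zfp942, Zfp74 and Zfp747 moved to 0.00865, 0.00609 and 0.00399, and under quantile normalization Zfp747 and Trim28 moved to 0.00174 and 0.0119. Over the fits with 1 library left out, log2 fold changes ranged from -0.087 to 0.039 for Zfp593, -0.033 to 0.037 for Zfp830, -0.64 to 0.34 for Zfp57, -0.26 to 0.066 for Zfp809, -0.027 to 0.092 for Zfp961, -0.014 to 0.10 for Zfp335, -0.023 to 0.10 for Zfp384, -0.0754 to 0.23 for Zfp703, -0.0700 to 1.22 for Zfp457, -0.54 to 0.0059 for Zfp595, -0.059 to 0.049 for Zfp942, -0.069 to 0.089 for Zfp944, -0.0699 to 0.0556 for Zfp74, -0.026 to 0.032 for Setdb1, -0.063 to 0.37 for Zfp27, -0.10 to 0.071 for Zfp260, -0.079 to 0.061 for Zfp747, -0.41 to 0.094 for Zfp688, -0.18 to 0.017 for Zfp646 and -0.40 to 0.0043 for Zfp758. The cause was not tested for these values.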

Other observations

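Genes in this section were chosen after their values were seen. In 12 members the replicates of a culture differed by more than 2-fold, and 0 of these were called. Zfp664 had 78.3 and 16.9 TPM in 2D and 72.5 and 70.2 TPM in 3D. Zfp7 had 12.7 and 10.9 TPM in 2D and 45.7 and 8.87 TPM in 3D. Zfp180 had 8.95 and 19.9 TPM in 2D and 6.29 and 6.19 TPM in 3D. In each of these 3 genes a single library stood apart from the other 3.

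The following 4 genes repeated a difference between the replicates in both cultures, by more than 1.5-fold each time. Zfp57 (54.9 and 28.5 TPM in 2D, 50.4 and 25.2 TPM in 3D) and Zfp707 (22.1 and 8.20 TPM in 2D, 22.5 and 9.29 TPM in 3D) were higher in replicate 1 of each culture. Zfp239 (2.95 and 5.16 TPM in 2D, 3.45 and 8.89 TPM in 3D) and Zfp457 (2.78 and 8.22 TPM in 2D, 6.16 and 9.78 TPM in 3D) were higher in replicate 2 of each culture. Across all genes the same-numbered libraries did not deviate together.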
